A study of Mus musculus with 4 samples.

Results

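The ovulatory proteases and their inhibitors were followed in mouse cumulus cells (CCs) through 10 genes: the ADAMTS proteases Adamts1, Adamts4 and Adamts5, the matrix metalloproteinases Mmp2 and Mmp14, the tissue inhibitors of metalloproteinases Timp1, Timp2 and Timp3, the plasminogen activator Plat and its inhibitor Serpine2. The genes were chosen by name, and every probe that carries one of these names in the table of non-normalized signals was kept, which gave 13 probes out of 25697. Adamts1, Timp1 and Timp3 have 2 probes each. The samples are 4 pools of CCs from B6C3F1 females of 6 weeks by the labels (the study's methods give an age range that ends there, and no mutation is named), taken 48 hours after an injection of folligon, a gonadotropin that makes follicles grow. In 2 pools the CCs came from oocytes with a ring of chromatin around the nucleolus (SN-CCs, competent oocytes) and in 2 from oocytes without it (NSN-CCs, incompetent oocytes), and each pool was read on its own Illumina mouse BeadChip, so n = 2 per type of CCs. The sample labels call the tissue oocytes, while their titles and source names say CCs. Cyp19a1, the aromatase of granulosa cells, had signals between 10576 and 13592 on the 4 arrays. Most other granulosa and cumulus markers listed below had lower signals in SN-CCs replicate 2 than in SN-CCs replicate 1. Inha, for example, had 3760 against 46056, while Inhba, like Cyp19a1, was higher in replicate 2. The sources name no ovulatory stimulus before the cells were taken.

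In the follicle these enzymes open the way for the oocyte. Plasminogen activators turn plasminogen into plasmin, metalloproteinases cut collagens and other basement membrane proteins, and ADAMTS proteases cut versican, the proteoglycan that is bound to hyaluronan in the matrix of the expanding cumulus. The inhibitors limit each of these steps: TIMPs bind metalloproteinases and serpins trap serine proteases. Much of this system is known to be induced in granulosa cells by the surge of luteinizing hormone.

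A value called a signal is a deposited intensity in arbitrary units that still holds the array's background. A log2 value is the signal after background correction (normexp), quantile normalization and a log2 transform, and a log2 fold change is NSN-CCs minus SN-CCs, with limma's standard error (SE). In each pair of values replicate 1 comes first. The background limit of an array, the 95th percentile of its 1340 probes for chemosensory receptors, lay between 116 and 120. SN-CCs replicate 2 stood apart: its log2 values had a correlation across probes of 0.930 to 0.934 with the other 3 arrays, which had 0.993 to 0.995 among themselves, and 11734 of its probes were above the limit against 13531 to 13703 on the others. Values without that array, which leave 1 pool of SN-CCs, are given beside most members and lists below, and beside some other genes.

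Of the 13 probes, 9 were above the background limit on all 4 arrays (41.2% of all probes were), 3 were above it on every array but SN-CCs replicate 2, and that of Plat was above it on none. None of the 13 passed an adjusted p of 0.05 in limma, nor did any of the 25697 probes (0%). At an unadjusted p under 0.05 were 2 of the 13, those of Timp2 and Timp3, beside 3.11% of all probes. Both were higher in NSN-CCs, beside 1.09% of all probes in that direction. None of the 13 were lower at that level, beside 2.02% of all probes. Both NSN-CCs arrays lay above both SN-CCs arrays in 4 of the 13 (16% of all probes) and below them in 2 (22.2% of all probes), 6 in all (38.2%). In the deposited signals they lay above in 3 (19.4%) and below in 2 (19%). Fold changes above 0 were found for 8 of the 13 (44% of all probes), and for 9 without SN-CCs replicate 2 (49.8%). Without that array 3 of the 13, those of Mmp2, Timp2 and the brighter Timp3 probe, had an unadjusted p under 0.05 (10.7% of all probes) and 0 an adjusted one (0.00389%). Without SN-CCs replicate 1, 8 of the 13 had an adjusted p under 0.05 in limma, beside 37.2% of all probes, with the spread then taken from the 2 NSN-CCs arrays alone. The median log2 fold change was 0.14 over the 13 probes and -0.033 over all probes. In bulk samples like these, fewer cells of a type and less RNA per cell cannot be told apart.

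**Figure D1:**
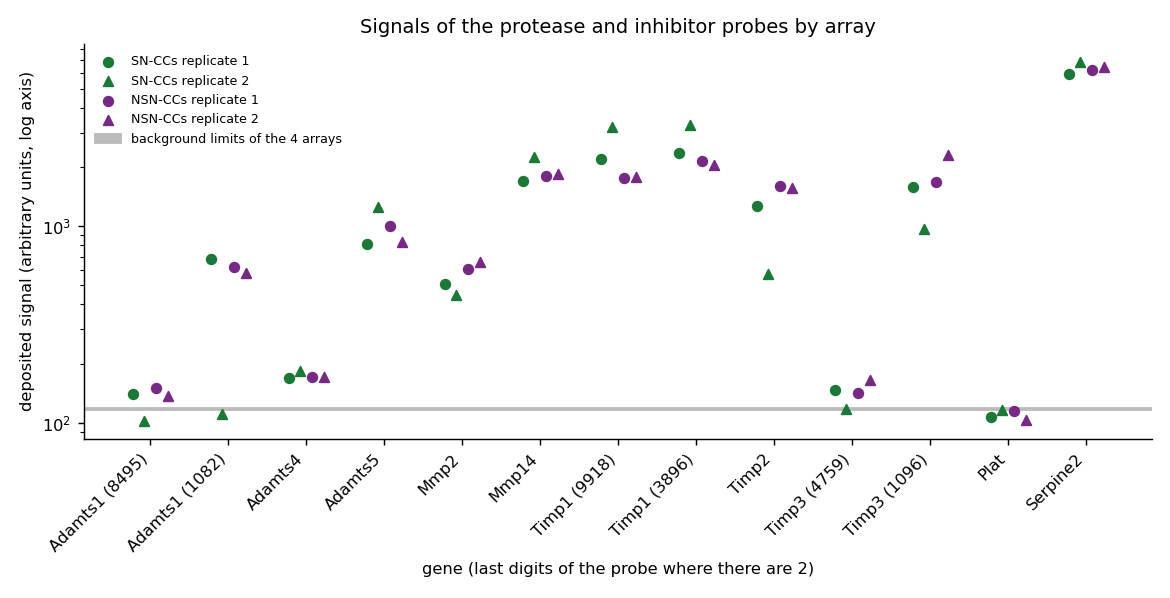
Deposited signal (log axis, arbitrary units) of each of the 13 probes on the 4 arrays, with SN-CCs in green, NSN-CCs in purple, replicate 1 as circles and replicate 2 as triangles. The grey band holds the 4 background limits (116 to 120). Serpine2 lay between 5975 and 6860 on every array, Plat lay in or under the band, and the brighter probe of Adamts1 was in the range of background only in SN-CCs replicate 2.

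Among the TIMPs the NSN-CCs arrays lay above the SN-CCs arrays for Timp2 and the brighter Timp3 probe and below them for Timp1, and none of these differences passed the adjusted test. Timp2, an inhibitor that also helps Mmp14 to activate pro-Mmp2, had signals of 1275 and 570 (SN-CCs) against 1594 and 1569 (NSN-CCs). Both NSN-CCs pools were above both SN-CCs pools, and the lowest value by far was that of SN-CCs replicate 2. The mean log2 value was 9.78 ± 0.52 (SD, n = 2) in SN-CCs and 10.64 ± 0.026 (SD, n = 2) in NSN-CCs. The log2 fold change was 0.86 (SE 0.29, 95% interval 0.087 to 1.64, unadjusted p = 0.0362, adjusted p = 0.811 from limma). It was 0.47 without SN-CCs replicate 2 and 1.25 without SN-CCs replicate 1.

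Timp3, which stays bound to the extracellular matrix and inhibits ADAMTS proteases as well as metalloproteinases, had signals of 1584 and 971 (SN-CCs) against 1689 and 2313 (NSN-CCs) on its brighter probe (ILMN_2741096). The groups did not overlap here either, although SN-CCs replicate 1 and NSN-CCs replicate 1 were close to each other, and the NSN-CCs pools were as far apart as the SN-CCs pools. The log2 fold change was 0.72 (SE 0.26, 95% interval 0.023 to 1.41, unadjusted p = 0.0455, adjusted p = 0.811 from limma), and 0.47 without SN-CCs replicate 2 and 0.94 without SN-CCs replicate 1. The other probe of Timp3 (ILMN_2614759) was dim, with signals of 147 and 117 (SN-CCs) against 142 and 165 (NSN-CCs). It overlapped between the groups (log2 fold change 0.14, SE 0.16).

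Timp1, the soluble inhibitor that gonadotropins are known to induce in granulosa cells of rodents, lay on the other side. Its probe ILMN_2769918 had signals of 2191 and 3189 (SN-CCs) against 1766 and 1789 (NSN-CCs). Its probe ILMN_3103896 had signals of 2368 and 3274 (SN-CCs) against 2144 and 2044 (NSN-CCs). On both probes the NSN-CCs pools were below the SN-CCs pools and SN-CCs replicate 2 was the highest array, and on ILMN_3103896 SN-CCs replicate 1 and the NSN-CCs pools were close to each other. The log2 fold changes were -0.45 (SE 0.24) and -0.30 (SE 0.22), both with the adjusted p 0.811 of limma, with -0.14 and -0.045 without SN-CCs replicate 2 and -0.76 and -0.56 without SN-CCs replicate 1.

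The difference between these inhibitors was tested within arrays, on probes that passed the background limit of every array, which are both Timp1 probes (averaged) and the brighter Timp3 probe. Timp2 minus Timp1 on the log2 scale was larger in NSN-CCs by 1.24, and Timp3 minus Timp1 by 1.09, each with p = 0.333 in a two-sided exact permutation test, which is the smallest p that 2 arrays against 2 allow. For Mmp2 minus Timp2 it was -0.58 (p = 0.667, same exact test). With SN-CCs replicate 2 set aside and the normalization of all 4 arrays kept, the values were 0.59, 0.60 and -0.052. After Benjamini-Hochberg adjustment over these 3 pairs the p-values were 0.4995, 0.4995 and 0.667. The outcome for both pairs with Timp1 was fixed beforehand. On these same arrays NSN-CCs lay above SN-CCs for Timp2 and the brighter Timp3 probe and below for Timp1.

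The promoters of the 3 TIMP genes are shown because fold changes of these related genes differed in sign. They are the 250 bases before the start of each gene, from RefSeq (GRCm38.p6). The set of promoters used here covered 6 of the 10 genes. Timp1 is at chrX:20869916-20870165 on the plus strand, Timp2 at chr11:118355412-118355661 on the minus strand and Timp3 at chr10:86300162-86300411 on the plus strand. Capitals mark matches, on both strands, to 4 short motifs: TGANTCA for an AP-1 site, GGGCGG for a GC box, TATAAA for a TATA box and AGGAAG for an ETS core. No matches overlap in the windows printed.
Timp1: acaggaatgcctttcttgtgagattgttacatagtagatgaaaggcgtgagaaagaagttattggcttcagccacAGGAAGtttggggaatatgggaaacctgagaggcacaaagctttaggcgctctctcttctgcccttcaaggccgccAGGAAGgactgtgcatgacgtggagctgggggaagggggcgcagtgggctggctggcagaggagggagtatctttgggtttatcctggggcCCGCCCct
Timp2: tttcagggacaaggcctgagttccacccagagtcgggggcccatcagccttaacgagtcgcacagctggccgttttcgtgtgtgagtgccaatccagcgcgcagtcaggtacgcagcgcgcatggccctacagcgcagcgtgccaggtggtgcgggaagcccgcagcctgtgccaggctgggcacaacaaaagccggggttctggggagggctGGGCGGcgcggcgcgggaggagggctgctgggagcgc
Timp3: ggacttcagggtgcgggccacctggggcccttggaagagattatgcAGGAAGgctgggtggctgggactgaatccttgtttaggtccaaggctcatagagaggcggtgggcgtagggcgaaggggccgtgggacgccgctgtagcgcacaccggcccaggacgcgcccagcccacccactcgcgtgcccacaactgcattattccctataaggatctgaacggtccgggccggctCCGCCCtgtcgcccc
Each of the 3 windows holds 1 GC box, which 32.7% of the 32851 promoter windows of the table hold. Timp1 holds 2 ETS cores and Timp3 holds 1, and 29.5% of all windows hold at least 1. None of the 3 has an AP-1 site or a TATA box in these letters (6.75% and 12.4% of all windows). A match describes the sequence only.

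**Figure D2:**
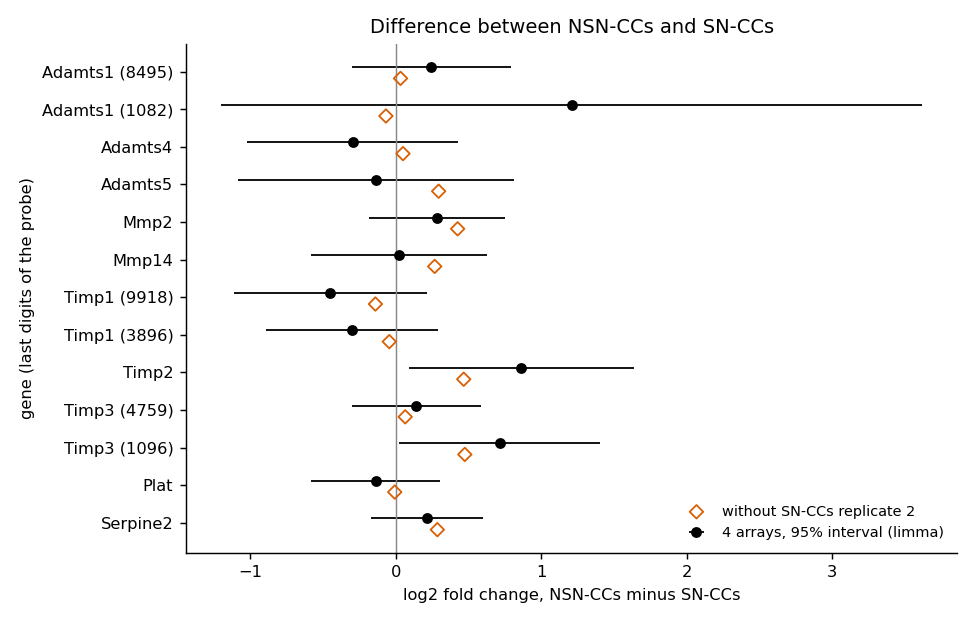
Log2 fold change (NSN-CCs minus SN-CCs) of each probe over the 4 arrays as black points, with limma's 95% interval, and the value without SN-CCs replicate 2 as open orange diamonds. The intervals of Timp2 and of the brighter Timp3 probe lie above 0 (from 0.087 and 0.023), and the widest is that of the brighter Adamts1 probe (-1.20 to 3.62).

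Adamts1, the versican-cutting protease whose loss makes ovulation inefficient in mice, had the widest spread between pools of the 10 genes. On its brighter probe (ILMN_2761082) the signals were 679 and 111 (SN-CCs) against 620 and 581 (NSN-CCs). The value of SN-CCs replicate 2 was under the background limit of that array, so that only 1 of the 2 SN-CCs arrays measured it, and SN-CCs replicate 1 was the highest of the 4. The log2 fold change of 1.21 (SE 0.89, 95% interval -1.20 to 3.62, adjusted p = 0.811 from limma) became -0.068 without that array and 2.44 without SN-CCs replicate 1. The dim probe (ILMN_1238495) had signals of 141 and 102 (SN-CCs) against 150 and 137 (NSN-CCs). There too SN-CCs replicate 2 was the only array under its limit, and the log2 fold change was 0.25 (SE 0.20), or 0.033 without it.
The Adamts1 promoter, at chr16:85803114-85803363 on the minus strand and marked in the same way, is shown because of that spread. It holds 3 GC boxes and 1 TATA box, and no AP-1 site or ETS core.
Adamts1: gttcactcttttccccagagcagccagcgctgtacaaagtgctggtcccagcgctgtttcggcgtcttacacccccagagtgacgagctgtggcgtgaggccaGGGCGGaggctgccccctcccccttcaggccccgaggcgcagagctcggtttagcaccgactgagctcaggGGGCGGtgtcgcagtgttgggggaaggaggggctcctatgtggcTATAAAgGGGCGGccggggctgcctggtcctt

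Adamts4 and Adamts5 are the aggrecanases, which cut versican as well. Adamts4 was dim but above background everywhere, with signals of 168 and 183 (SN-CCs) against 171 and 171 (NSN-CCs). These signals differ by at most 1.09 times over the 4 arrays. Its log2 fold change was -0.30 (SE 0.27) and was 0.050 without SN-CCs replicate 2. Adamts5 had signals of 817 and 1250 (SN-CCs) against 1004 and 836 (NSN-CCs), so that both NSN-CCs pools lay between the SN-CCs pools. Its log2 fold change was -0.14 (SE 0.35, 95% interval -1.09 to 0.81), and it was 0.29 without SN-CCs replicate 2 and 0.010 without NSN-CCs replicate 2.

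Mmp2, gelatinase A, which cuts the type IV collagen of basement membranes, had signals of 508 and 449 (SN-CCs) against 609 and 655 (NSN-CCs). The NSN-CCs pools were above the SN-CCs pools in the signals and in the log2 values. The log2 fold change was 0.28 (SE 0.17, 95% interval -0.19 to 0.75, adjusted p = 0.811 from limma) and 0.43 without SN-CCs replicate 2, but 0.12 without SN-CCs replicate 1. Mmp14, the membrane-anchored protease that activates pro-Mmp2, had signals of 1691 and 2260 (SN-CCs) against 1810 and 1837 (NSN-CCs). The NSN-CCs pools lay between the SN-CCs pools, and the log2 fold change was 0.020 (SE 0.22, 95% interval -0.58 to 0.62). It was 0.27 without SN-CCs replicate 2 and -0.26 without SN-CCs replicate 1.

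Plat, the tissue-type plasminogen activator, which is also known as a stored transcript of mouse oocytes, was not above background on any array. Its signals were 107 and 116 (SN-CCs) against 114 and 103 (NSN-CCs), and no fold is given. Serpine2, or protease nexin-1, which traps thrombin and plasminogen activators, was bright, with signals of 5975 and 6860 (SN-CCs) against 6224 and 6492 (NSN-CCs). These signals overlap between the groups. After quantile normalization the log2 values were 12.46 and 12.61 (SN-CCs) against 12.71 and 12.80 (NSN-CCs), which do not overlap, and the log2 fold change was 0.22 (SE 0.14, 95% interval -0.17 to 0.60). With arrays scaled to a common median in place of quantiles it was -0.065.

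The spread between pools was larger in SN-CCs than in NSN-CCs for 11 of the 13 probes, and for 72.3% of all probes. The median size of the difference between the 2 pools was 0.51 (log2) between SN-CCs and 0.10 between NSN-CCs over the 13 probes. Over all probes it was 0.27 and 0.12, and over those above the limit on every array 0.53 and 0.10. In the log2 values SN-CCs replicate 2 was the lowest of the 4 arrays for 5 of the 13 probes (29.4% of all probes) and the highest for 6 (44.7% of all probes). The 5 probes where it was lowest were those of Adamts1, Timp2 and Timp3, and the 6 where it was highest were those of Adamts4, Adamts5, Mmp14, Timp1 and Plat. The exceptions were Mmp2 and Serpine2, whose SN-CCs pools differed by 0.32 and 0.15 on the log2 scale.

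**Figure D3:**
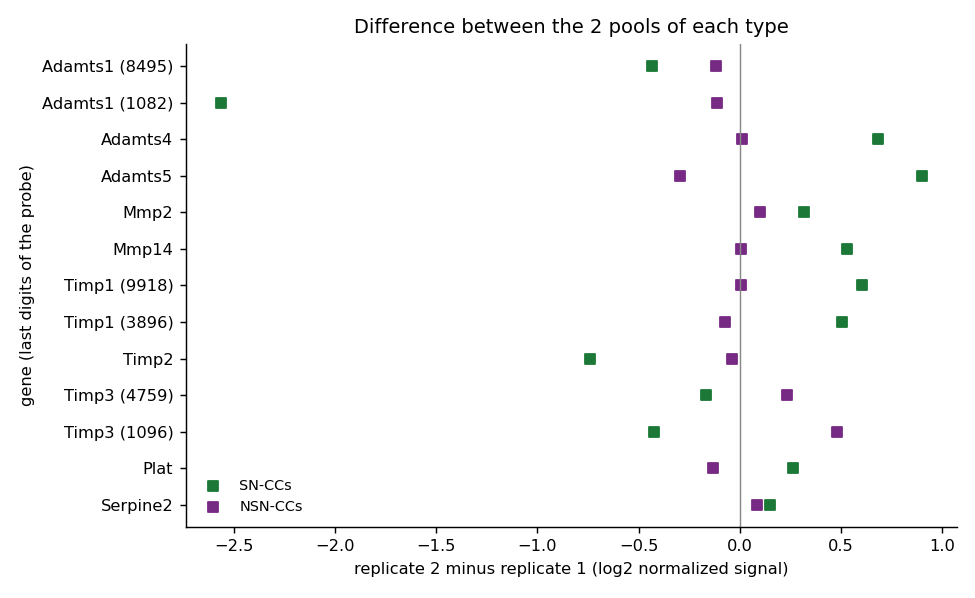
Replicate 2 minus replicate 1 on the log2 scale for each probe, with SN-CCs as green and NSN-CCs as purple squares. The SN-CCs pools differ by -2.56 at the brighter Adamts1 probe and by up to 0.90 (Adamts5) in the other direction, while the NSN-CCs pools stay between -0.30 (Adamts5) and 0.48 (the brighter Timp3 probe).

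The other genes of the system are given by lists, on the brightest probe of each gene. No gene of these lists passed an adjusted p of 0.05 in limma. Of 18 genes of the plasminogen system 11 were above the background limit on all arrays, and 5 were higher and 13 lower in NSN-CCs (median log2 fold change -0.15, and 0.10 without SN-CCs replicate 2). None of the 18 had an unadjusted p under 0.05 in limma, beside 3.11% of all probes. Among those lower, the smallest p belonged to the complement and kallikrein inhibitor gene Serping1 (-0.31, SE 0.13) and the plasminogen receptor gene Plgrkt (-0.33, SE 0.14). Signals of Serping1 were 504 and 346 (SN-CCs) against 395 and 380 (NSN-CCs), which overlap, while its log2 values do not. Among those higher, the smallest p belonged to Serpinb2 and Thbd, both below background on every array. Plau, the urokinase-type plasminogen activator, which is named here after its values were seen because Plat was below background, had signals of 251 and 465 (SN-CCs) against 188 and 192 (NSN-CCs). Its log2 fold change was -1.07 (SE 0.51), or -0.36 without SN-CCs replicate 2. Plg, the plasminogen gene, also named after its values were seen, was not above background on any array.

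Of 14 other ADAMTS family genes measured, 2 were higher and 12 lower in NSN-CCs (median log2 fold change -0.19, and -0.11 without SN-CCs replicate 2), and 7 of the 14 were above background on no array. Adamts19, which had a log2 fold change of -0.54 (SE 0.29), or -0.18 without SN-CCs replicate 2, had signals of 3258 and 5599 (SN-CCs) against 2529 and 2638 (NSN-CCs). Adamts2, a procollagen N-proteinase, had signals of 7458 and 9569 (SN-CCs) against 8101 and 8988 (NSN-CCs), which overlap, while its log2 values do not (log2 fold change 0.26, SE 0.17). Adamtsl2 was at -0.25, with signals of 241 and 159 (SN-CCs) against 192 and 192 (NSN-CCs). Those signals also overlap between the groups, while the log2 values do not. Adamts16 was not above background on any array. Of 20 other MMP genes 6 were higher and 14 lower (median -0.091), but without SN-CCs replicate 2 the higher ones were 10 and the median -0.0023, and 10 of the 20 were above background on no array. Mmp11, or stromelysin 3, had signals of 1255 and 375 (SN-CCs) against 1189 and 1292 (NSN-CCs), so that SN-CCs replicate 2 alone stood out (log2 fold change 0.78, SE 0.46, and 0.14 without that array). Mmp19, Mmp10 and Mmp1a were dim, with signals between 91.4 and 183, and had log2 fold changes of 0.18, -0.31 and -0.50 (0.19, -0.33 and -0.16 without that array).

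Among 10 other regulators of metalloproteinases 6 were higher and 4 lower (median 0.099, and 0.076 without SN-CCs replicate 2), with 1 at an unadjusted p under 0.05 (3.11% of all probes). That was Furin, the convertase that activates pro-Mmp14 and ADAMTS proenzymes, with signals of 3970 and 3464 (SN-CCs) against 4405 and 4570 (NSN-CCs) (log2 fold change 0.45, SE 0.15, unadjusted p = 0.0340). The groups did not overlap, and the value was 0.35 without SN-CCs replicate 2. Bsg (0.46), Spock3 (-0.42) and Papln (-0.39) were near background, and without that array they were at 0.27, -0.25 and 0.050. Among 11 genes of the ADAM family, only some of which encode proteases that shed growth factors from cell surfaces, 3 were higher and 8 lower. Their median was -0.18, and -0.065 without SN-CCs replicate 2. Adam17, which releases EGF-like ligands, had signals of 2401 and 2514 (SN-CCs) against 1581 and 1594 (NSN-CCs). Its log2 fold change was -0.54 (SE 0.14, unadjusted p = 0.0141, adjusted p = 0.811 from limma), the pools of each type were close together, and the value was -0.46 without SN-CCs replicate 2. Adam23 was at -0.77 (-0.35 without that array), Adam15 at 0.43, and Adam10 was below background on every array.

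Genes of the cumulus matrix and the basement membrane were found on both sides, with 10 of 21 higher and 11 lower (median -0.075), but 12 higher and a median of 0.051 without SN-CCs replicate 2. At an unadjusted p under 0.05 were 4 higher (1.09% of all probes) and 1 lower (2.02%). Vcan, which encodes versican, the substrate of Adamts1, had signals of 257 and 168 (SN-CCs) against 346 and 334 (NSN-CCs) (log2 fold change 0.53, SE 0.13). It was 0.51 without SN-CCs replicate 2. Hspg2, the basement membrane proteoglycan perlecan, was at 0.66 (SE 0.20), and Has2, which makes hyaluronan, at -1.04 (SE 0.37), with 0.41 and -0.56 without that array. Hapln3 was below background on every array. Among 14 genes of the ovulatory signal 12 were higher and 2 lower (median 0.19, and 0.44 without SN-CCs replicate 2). At an unadjusted p under 0.05 were 3, all higher (1.09% of all probes). Areg, an EGF-like ligand that carries the signal of luteinizing hormone to the cumulus, had signals of 2576 and 3084 (SN-CCs) against 4217 and 4374 (NSN-CCs) (log2 fold change 0.80, SE 0.16, adjusted p = 0.811 from limma). Btc, another such ligand, was at 0.72 (SE 0.16). Lhcgr, the receptor of luteinizing hormone, was at -0.48 (SE 0.31), or -0.069 without SN-CCs replicate 2, and Ereg was below background on every array.

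**Figure D4:**
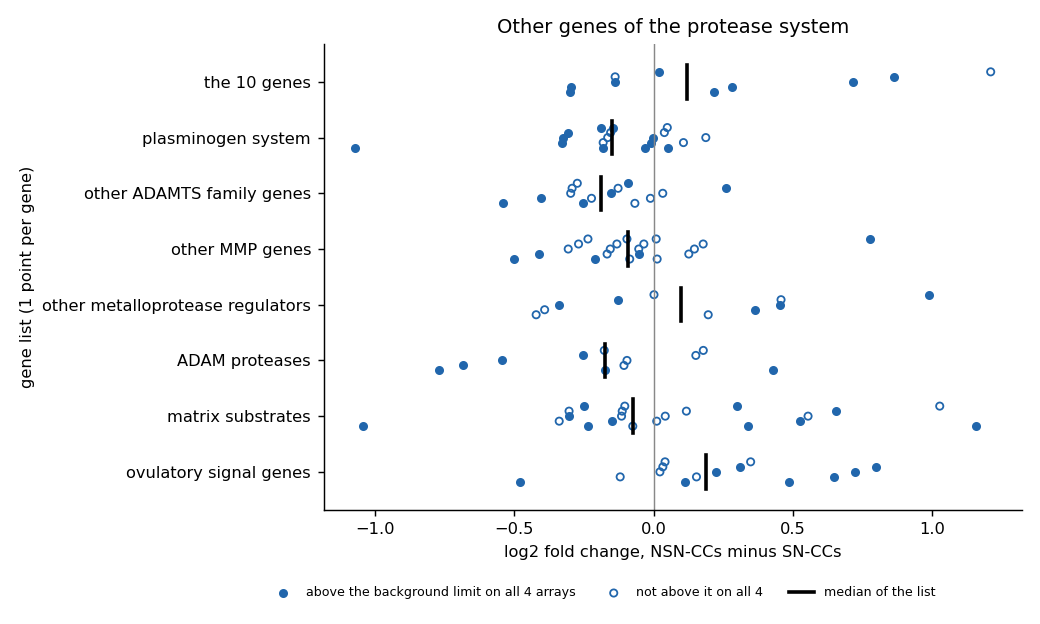
Log2 fold change (NSN-CCs minus SN-CCs) of each gene on its brightest probe, for the 10 genes and the 7 lists of related genes described above, without the cell type markers. Filled points were above the background limit on each of the 4 arrays, open points were not, and black bars are medians, which lay between -0.19 (other ADAMTS family genes) and 0.19 (ovulatory signal genes).

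Several members are also made by theca, stroma, vessels and white blood cells, so the markers of these cells are given as summed signals. Markers of theca and stroma (8 of 14 above background on all arrays) added up to 7838 to 11585 (SN-CCs) and 8286 to 8340 (NSN-CCs). Cyp17a1, the androgen-making enzyme of theca cells, had signals of 1593 and 2808 (SN-CCs) against 1768 and 1642 (NSN-CCs), while Insl3, another theca marker, was not above background on any array. Endothelial markers (5 of 10) added up to 2005 to 2213 (SN-CCs) and 2105 to 2156 (NSN-CCs), and Cdh5 was not above background on any array, whereas Pecam1 was on 3. Leukocyte markers (5 of 12) added up to 1617 to 1741 (SN-CCs) and 1866 to 1959 (NSN-CCs). These sums still hold the background of each probe. By gene, 4 of the 12 were higher and 8 lower in NSN-CCs (median log2 fold change -0.034, and 0.11 without SN-CCs replicate 2). Ptprc, the pan-leukocyte marker, was not above background on any array, and Cd68 was on 1.
Oocyte markers (9 of 15) added up to 5158 to 5854 (SN-CCs) and 3986 to 4056 (NSN-CCs), with 14 of 15 lower in NSN-CCs, among them Gdf9 (-0.44, and -0.18 without SN-CCs replicate 2) and Bmp15 (-0.70, and -0.52). The median of these markers was -0.35, and -0.21 without that array. Erythroid markers (4 of 6) added up to 9352 to 13543 (SN-CCs) and 15528 to 16095 (NSN-CCs), most of it from Hba-a1. Hbb-b1 was at -0.49 (-0.041 without SN-CCs replicate 2). By gene, 2 of the 6 erythroid markers were higher and 4 lower in NSN-CCs (median -0.45, and -0.0072 without that array). Granulosa and cumulus markers (10 of 12) added up to 169454 and 105735 in SN-CCs replicates 1 and 2 and to between 158325 and 164805 in NSN-CCs. The largest drop was that of Inha, with signals of 46056 and 3760 (SN-CCs) against 45170 and 43879 (NSN-CCs). Inhba and Cyp19a1 had higher signals in SN-CCs replicate 2 than in SN-CCs replicate 1, and the other markers of this list lower ones. Of these 12 markers 10 were higher in NSN-CCs (median 0.30, and 0.030 without SN-CCs replicate 2), and Fshr, the receptor of follicle-stimulating hormone, was at -0.057. The part of these cells in the values of the 10 genes was not tested.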

How the data were processed

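Pools of CCs were hybridised by the authors to Illumina mouse BeadChips after amplification and biotin labelling of the RNA, and read with BeadStudio (version 3 in the submitters' processing notes). The main deposited table holds intensities of 25697 probes on a linear scale, not background-subtracted and not scaled. A second deposited table holds the authors' normalized intensities (background subtraction and rank invariant normalization per the methods). Neither holds detection p-values. The number of arrays limits the precision.
Signals were corrected with normexp (offset 50), quantile normalized, log2 transformed and fitted with limma 3.58.1 in R 4.3.3 (NSN-CCs minus SN-CCs, no covariates, no filter), with Benjamini-Hochberg adjustment over all probes. The fit was tried on simulated data with known changes and equal noise on every array, so with no array that stood apart. The methods name a permutation-based test without its details, so limma was used. Nothing beyond the word biological replicates says that pools are independent, and p-values measure the spread between these pools.
The 13 probes were found by name, and the platform annotation gives the same gene for 12 of them and none for that of Serpine2. List genes are those with the smallest p per direction (up to 2) and the first 2 of each marker list, on the brightest probe. The members, lists and tests were chosen with earlier results of these data known. Alternatives were another offset, no background correction, median scaling, the authors' values, a filter on dim probes, another variance prior, a replicate block and each array left out. No coordinates of probes are given, since the sources used here name no build for the array.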

Additional observations from a re-analysis of the deposited data

How the results depend on the processing

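Over 12 alternative settings, 138 of 155 values of the 13 probes kept their direction and their side of the threshold, 8 came past an adjusted p of 0.05 and 9 changed sign. The filter on dim probes, the other variance prior and the replicate block leave the log2 fold change of each probe they keep as in the main fit. No sign could change in those settings, so they add to the values that kept their direction. No probe of the 13 was called in any setting but that without SN-CCs replicate 1, where 8 of the 13 were, beside 9547 of all 25697 probes (37.2%). There, and equally without SN-CCs replicate 2, the spread came from the 2 NSN-CCs arrays alone. With each array left out in turn the members called ranged from 0 to 8, all probes called from 0 to 9547 (1 without SN-CCs replicate 2) and the median of the 13 probes from 0.023 to 0.18. That median was -0.065 with median scaling and -0.045 on the authors' normalized values, where the median of all probes moved to -0.43 and the 13 probes lay 0.39 above it. The authors' values also gave -0.28 for the dim probe of Adamts1 and -0.25 for that of Timp3. Median scaling gave -0.16 for Mmp14 and -0.065 for Serpine2. Signs changed with an array left out for the brighter Adamts1 probe (range over the 4 left-out arrays -0.068 to 2.44), Adamts4 (-0.62 to 0.050), Adamts5 (-0.60 to 0.29) and Mmp14 (-0.26 to 0.27). The first 3 changed without SN-CCs replicate 2, Adamts5 also without NSN-CCs replicate 2 (0.010), and Mmp14 without SN-CCs replicate 1. The cause was not tested. Mmp2, Timp1, Timp2 and the brighter Timp3 probe kept their sign in all 12 settings, which include those where no sign could change. With the replicate number as a block 0 members and 0 probes were called. The median stayed at 0.14, which a block in this balanced design cannot change. The differences between replicates of the 2 types had a correlation of 0.041 across probes. With 1 difference per type, and SN-CCs replicate 2 standing apart, this cannot tell whether the numbers pair the pools.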

Other observations

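The authors' normalized table was a straight line of the non-normalized signals on every array (squared correlation of 1), with a slope of 0.86 and an intercept of 19.8 in SN-CCs replicate 1, 0.92 and 10.1 in NSN-CCs replicate 1, and 0.92 and 11.1 in NSN-CCs replicate 2. In SN-CCs replicate 2 the slope was 0.76 and the intercept 136, and no value of that array was below 182, against lowest values between 66.2 and 69.1 on the others. Dim members show it most. Plat, below background in the non-normalized signals of all arrays, had normalized values of 111 and 224 (SN-CCs) against 116 and 106 (NSN-CCs). The dim probe of Adamts1 had 140 and 214 (SN-CCs) against 149 and 137 (NSN-CCs), so that SN-CCs replicate 2 went from the lowest to the highest of the 4 arrays. The brighter probe of Adamts1 stayed lowest there, with 220.5 against 547 to 601. When normexp and quantile normalization were run on the authors' values, a setting added after seeing the data, the median of the 13 probes was 0.14 and Timp2 was at 0.85. A result near the main fit was largely fixed beforehand there, since a straight line keeps the order of the probes within an array.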
